A study of Homo sapiens with 36 samples.

Results

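The 10 genes of fatty acid synthesis, elongation and desaturation described here are ACLY, ACSS2, ACACA, FASN, ELOVL6, ELOVL5, SCD, FADS1, FADS2 and the transcription factor gene SREBF1. They are 10 of the 35490 genes that the deposited transcripts sum to, listed by name, and the set was chosen by its TPM with A9 and DMSO in MONO-MAC-6, where FADS2 was lower with A9. The values of that comparison are therefore given as a description, without a test. The same genes were tested in MOLM-13, but the set was listed with earlier results of these data known. The MOLM-13 p-values are therefore not an independent test of the set. RNA was measured by bulk poly(A) sequencing in MOLM-13 and MONO-MAC-6, established human cell lines grown from acute leukaemias of the myeloid and monocytic kind, both labelled wild type and grown in RPMI medium with serum. Cells received the vehicle DMSO or A9, a PROTAC (a compound that brings a protein to a ubiquitin ligase so that it is degraded) directed at NR4A1 and an IKK kinase (IKK1 in the study's title, IKK2 in its design text), for 72 h. The A9 dose was 0.125 µM for MOLM-13, while MONO-MAC-6 received 0.25 µM. Each of the 4 groups had 9 libraries, averaged by the first of the 2 numbers in their names to 3 samples, and nothing in the labels says that these came from separate cultures, so p-values measure only the spread between these samples.

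Cells make fatty acids from acetyl-CoA, which is carboxylated to malonyl-CoA and joined into palmitate, a saturated chain that is then lengthened and given double bonds. Desaturases differ in where they place the bond: SCD makes monounsaturated oleate and palmitoleate, while FADS2 and FADS1 act in turn, with an elongation by ELOVL5 between them, on the essential fatty acids of the diet to give arachidonate and related chains. SREBF1 encodes SREBP1, a membrane-bound factor that is cut free when sterols are low and that activates most genes of the pathway, its own gene included. In myeloid cells these chains serve as membrane lipid and as the source of prostaglandins and leukotrienes.

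Promoter sequence was looked up because SREBF1 and most of the other genes had lower means with A9 in MONO-MAC-6. The part of any motif in these values was not tested. RefSeq starts on GRCh38.p14 were found for 9 of the 10 genes (no entry matched FASN), in 14 windows of 250 bases before a start. The stretches printed end before the first annotated transcript base, so they hold no transcribed sequence. They are the SREBF1 stretch, chr17:17837003-17837236, minus strand, with GC boxes (GGGCGG on either strand) in capitals, and the SCD stretch, chr10:100346983-100347123, plus strand, with CCAAT boxes (CCAAT on either strand) in capitals.
SREBF1: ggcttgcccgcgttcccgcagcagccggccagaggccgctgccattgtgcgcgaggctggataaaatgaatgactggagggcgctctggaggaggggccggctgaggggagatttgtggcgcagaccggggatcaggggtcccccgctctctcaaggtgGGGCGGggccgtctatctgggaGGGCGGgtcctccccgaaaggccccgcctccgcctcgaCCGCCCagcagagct
SCD: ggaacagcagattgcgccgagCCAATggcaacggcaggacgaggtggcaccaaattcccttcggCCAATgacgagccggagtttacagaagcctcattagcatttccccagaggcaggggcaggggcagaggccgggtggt
The 3 GC boxes of SREBF1 began 91, 69 and 31 bases before its RefSeq start, and the 2 CCAAT boxes of SCD began 229 and 186 bases before its own. Both motifs are common: a GC box was in 42.6% of all 35116 windows of this length and in 11 of the 14 windows here, and a CCAAT box in 32.0% of all windows and in 7 of the 14, which belonged to ACACA, ACLY, ACSS2, ELOVL5 and SCD. The E-box CACGTG was in 6.34% of all windows and in 1 of the 14, that of ELOVL5. The letters TCACNCCAC, the core of the sterol regulatory element, were in 0.883% of all windows and in 0 of the 14. For FADS2 the RefSeq windows lie before starts that are 11357 and 11558 bases upstream of its most abundant transcript, so the sequence before that transcript was not used here.

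The deposited values were transcript TPM (abundances corrected for length and scaled to 1 total per library), so levels of different genes can be set side by side, and the depth behind a value is unknown. A total of 86918 to 105082 transcripts were above 0 per library. All 8 markers of myeloid leukaemia cells reached 1 TPM in at least 1 sample of every group, and the T cell genes CD3E, CD2 and TRBC1 were at 0 throughout. Of 6 monocyte markers, 3 reached 1 TPM in a DMSO sample of MOLM-13 and 4 in one of MONO-MAC-6, while FCN1 and CSF1R stayed under 1 TPM in MONO-MAC-6. One sample stood apart: in MONO-MAC-6 DMSO sample 1, ribosomal protein genes held 25.0% of TPM against 16.4% to 18.7% in the other 5 samples of the line, and mitochondrial genes 6.12% against 8.76% to 9.44%. It was also the lowest DMSO sample of its line for all 10 genes, and the values of the 10 genes in that line are given with and without it. In bulk RNA, fewer cells of a type and less RNA per cell cannot be told apart.

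In MONO-MAC-6, FADS2 was 2.91-fold lower with A9 than with DMSO and SREBF1 was 2.06-fold lower, and for both genes every A9 sample lay below every DMSO sample. The other 8 genes overlapped between the groups when all samples were used, 7 of them with a lower mean with A9 and ELOVL5 with a higher one. Without DMSO sample 1, all 10 were lower with A9, SCD by 1.13 and FADS1 by 0.64 on the log2 scale of TPM + 1. The median log2 fold change of the 10 genes was -0.336 (9 of 10 negative) against 0.161 over all 12876 genes tested, and without DMSO sample 1 it was -0.593 against 0.0269. The 2 genes without overlap between the groups compare with all genes tested, of which 37.9% did not overlap, 27.2% with A9 above and 10.7% with A9 below. Since FADS2 in this comparison led to the list, these counts are a description. Without A9 sample 2 or A9 sample 3, FADS2 was at -1.461 and -1.497 on the log2 scale and SREBF1 at -0.989 and -1.004. Scaling the samples by median-ratio size factors moved the median of all genes from 0.161 to -0.00925, and all 10 genes, ELOVL5 included, then had a negative log2 fold change, with FADS2 at -1.70 and SREBF1 at -1.20. All 10 genes reached the minimum of 1 TPM in a group that a test required, ELOVL6 only through its DMSO samples here and only through its A9 samples in MOLM-13.

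**Figure D1:**
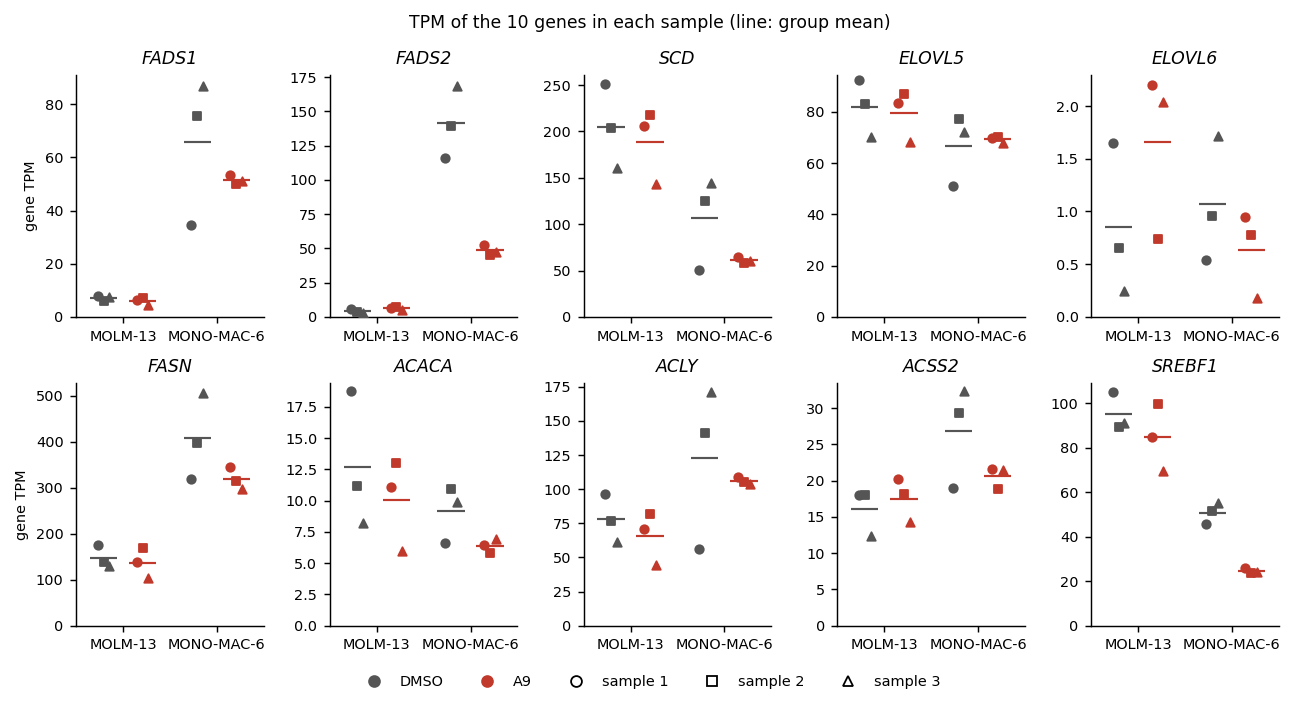
TPM of each of the 10 genes (vertical axis, from 0) in the 3 DMSO samples (grey) and 3 A9 samples (red) of MOLM-13 and MONO-MAC-6, with a horizontal line at each group mean and 1 marker shape per sample number. FADS2 and SREBF1 separate by treatment in MONO-MAC-6, where DMSO sample 1 (circle) is the lowest DMSO value for all 10 genes.

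FADS2 (chr11:61792980-61867354, plus strand, GENCODE 29 on GRCh38), the delta-6 desaturase that starts the conversion of linoleate and alpha-linolenate, measured 116.1, 139.5 and 168.6 TPM in the 3 DMSO samples of MONO-MAC-6 and 52.8, 45.2 and 47.6 TPM with A9. Every DMSO value thus lay above every A9 value, and the means were 141 ± 26.3 and 48.5 ± 3.87 TPM (SD, n = 3 each). The log2 fold change was -1.51 (SE 0.15), and -1.64 without DMSO sample 1. FADS1, the delta-5 desaturase that acts later in the same route, measured 34.4, 75.4 and 87.0 TPM with DMSO and 53.5, 50.1 and 51.3 TPM with A9. DMSO sample 1 lay below all A9 samples and the other 2 above them, and the log2 fold change was -0.24 (SE 0.33) with that sample and -0.64 without it. FADS1 (chr11:61799625-61829318, minus strand) lies within the span of FADS2 on the opposite strand, and the labels do not say whether the libraries kept strand, so reads of the overlap could be assigned to either gene. The main transcripts do not overlap: FADS2-202 begins 10599 bases from the start of FADS1-201 and runs away from it.

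SCD (chr10:100347124-100364834), the delta-9 desaturase that makes oleate, measured 50.7, 125.5 and 144.4 TPM with DMSO and 64.2, 58.6 and 60.1 TPM with A9 in MONO-MAC-6. As for FADS1, DMSO sample 1 was below the A9 samples and the other 2 DMSO samples were above them. The log2 fold change was -0.67 (SE 0.38), and -1.13 without DMSO sample 1. ELOVL5, which lengthens the polyunsaturated chains between the steps of FADS2 and FADS1, measured 51.1, 77.2 and 72.3 TPM with DMSO and 69.9, 70.2 and 68.0 TPM with A9. Its log2 fold change was 0.07 (SE 0.16) with all samples and -0.11 without DMSO sample 1, so its sign depended on that sample. ELOVL6, which lengthens palmitate to stearate, was near the lower limit used for testing, at 1.07 ± 0.596 TPM with DMSO and 0.634 ± 0.406 TPM with A9 (SD, n = 3 each), and its log2 fold change of -0.34 (SE 0.28) became -0.53 without DMSO sample 1.

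FASN (chr17:82078333-82098332, minus strand), the synthase that builds palmitate, was the most abundant of the 10 genes in MONO-MAC-6, at 318.9, 396.9 and 506.5 TPM with DMSO and 344.2, 313.9 and 296.1 TPM with A9. The groups overlapped by 1 DMSO sample, and the log2 fold change was -0.33 (SE 0.17), or -0.50 without DMSO sample 1. ACACA, the acetyl-CoA carboxylase that makes malonyl-CoA, measured 6.58, 10.9 and 9.92 TPM with DMSO and 6.44, 5.84 and 6.92 TPM with A9. Its log2 fold change was -0.43 (SE 0.20) and -0.63 without DMSO sample 1. ACLY, which splits cytosolic citrate into acetyl-CoA, ranged from 55.8 to 171.2 TPM with DMSO and from 103.6 to 108.9 TPM with A9. Its log2 fold change of -0.06 (SE 0.40) became -0.55 without DMSO sample 1, the widest shift among the 10. ACSS2, which makes acetyl-CoA from acetate, measured 19.0, 29.3 and 32.4 TPM with DMSO and 21.5, 18.9 and 21.5 TPM with A9, and its log2 fold change of -0.33 (SE 0.21) became -0.56.

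SREBF1 (chr17:17810399-17837002, minus strand) measured 45.7, 51.5 and 55.1 TPM with DMSO and 25.8, 23.7 and 24.2 TPM with A9 in MONO-MAC-6, with no overlap. The means were 50.7 ± 4.74 and 24.6 ± 1.08 TPM (SD, n = 3 each). The log2 fold change was -1.01 (SE 0.10), and -1.08 without DMSO sample 1, so of the 10 genes this one moved least when that sample was left out. SREBF2, the gene of the related factor SREBP2 that acts mainly on cholesterol genes, measured 40.8, 67.7 and 76.8 TPM with DMSO and 54.9, 56.5 and 54.0 TPM with A9, a log2 fold change of -0.11 (adjusted p = 0.762 by limma). Its DMSO sample 1 lay below the A9 samples and its other DMSO samples above them. Without that sample the SREBF2 value was -0.38 (adjusted p = 0.00398 by limma), in a fit where 24.8% of all genes passed. Over 13 alternatives the SREBF2 value ranged from -0.40 to 0.07, and 3 of them passed. The ratio of SREBF1 to SREBF2 was 1.12, 0.761 and 0.717 in the DMSO samples and 0.47, 0.42 and 0.449 with A9. In MOLM-13 that ratio was between 1.64 and 1.96 in all 6 samples and the groups overlapped.

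**Figure D2:**
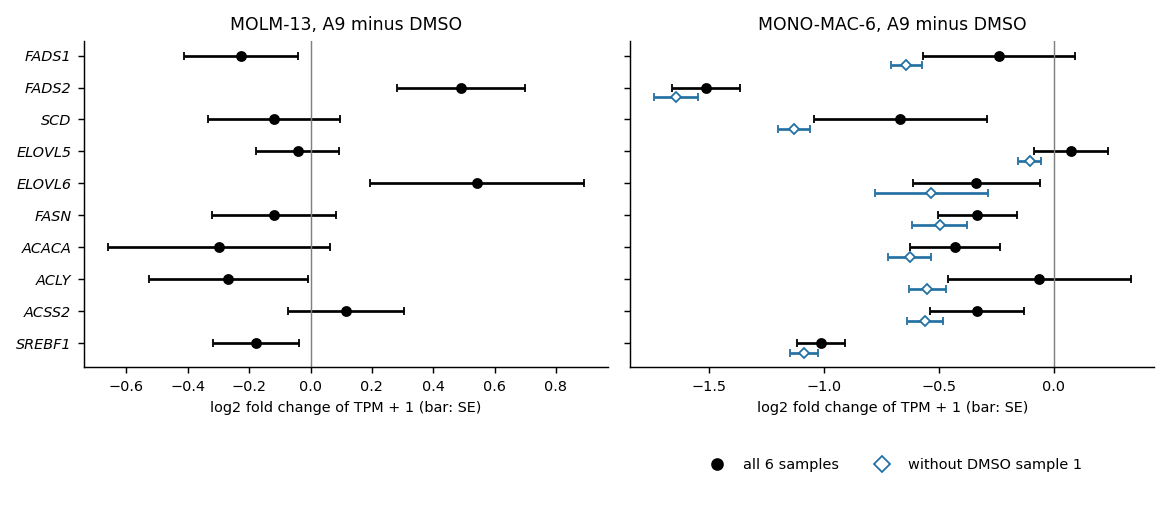
Log2 fold change of TPM + 1, A9 minus DMSO (horizontal axis), with its SE for the 10 genes in MOLM-13 (left) and MONO-MAC-6 (right, all samples in black, without DMSO sample 1 as open diamonds). In MONO-MAC-6, FADS2 at -1.51 and SREBF1 at -1.01 lie farthest left with all samples, and the values without DMSO sample 1 are all below 0.

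In MOLM-13, no difference between A9 and DMSO was shown for any of the 10 genes when transcripts were summed without further scaling. By limma on these sums, 0 of the 10 passed an adjusted p of 0.05, where 0.121% of all 11602 genes passed (0.0862% as higher and 0.0345% as lower). On the same sums 0 of the 10 had an unadjusted p under 0.05, where 915 of all genes did. All 10 sums overlapped between the groups, where 15% of all genes did not, 8.58% with A9 above and 6.42% with A9 below. For the main coding transcripts alone, an alternative chosen after the data were seen, FADS2 and FADS1 had unadjusted p-values of 0.0209 and 0.0318 by limma (adjusted 0.461 and 0.532). The median log2 fold change of the 10 was -0.119 (7 of 10 negative), against -0.0461 over all genes, and it was positive, at 0.0255 and 0.0668, without DMSO sample 1 and without A9 sample 3. FADS2 measured 5.72, 3.94 and 3.14 TPM with DMSO and 6.58, 7.06 and 5.25 TPM with A9, which gave 0.49 on the log2 scale (SE 0.21, unadjusted p = 0.0535, adjusted p = 0.642 by limma). Its groups overlapped by 1 sample, DMSO sample 1, and its fold change was positive where that of MONO-MAC-6 was negative. The difference between the lines was not tested, because the MONO-MAC-6 value had led to the list and the doses differed.

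The other desaturases of MOLM-13, summed over their transcripts, had lower means with A9. FADS1 measured 7.73, 6.14 and 7.35 TPM with DMSO and 6.44, 7.10 and 4.39 TPM with A9 (log2 fold change -0.23, SE 0.18, adjusted p = 0.870 by limma). SCD, the most abundant of the 10 in this line, measured 251.3, 204.1 and 160.2 TPM with DMSO and 206.1, 217.9 and 142.8 TPM with A9 (-0.12, SE 0.22, adjusted p = 0.904 by limma). Sample 3 was the lowest for SCD in both groups, and the ranges of the groups overlapped. SREBF1 measured 105.0, 89.5 and 91.4 TPM with DMSO and 84.8, 99.8 and 69.7 TPM with A9 (-0.18, SE 0.14, adjusted p = 0.867 by limma). FASN was 147 ± 24.7 TPM with DMSO and 137 ± 33.1 TPM with A9, ACLY 78.0 ± 17.6 and 65.6 ± 19.2 TPM, and ACACA 12.7 ± 5.44 and 10.0 ± 3.64 TPM (SD, n = 3 each). ELOVL5 at 81.9 ± 11.2 and 79.4 ± 9.93 TPM and ACSS2 at 16.2 ± 3.24 and 17.5 ± 2.97 TPM also overlapped. ELOVL6 was at 0.851 ± 0.724 TPM with DMSO and 1.66 ± 0.800 TPM with A9, a log2 fold change of 0.54 with an SE of 0.35.

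With DMSO the lines differed in how much of the pathway's RNA they held. These levels are given as a description, since each line has a table of its own. They are sums over transcripts, and the main coding transcripts were not compared between the lines. In DMSO, FADS2 was 33.1-fold higher in MONO-MAC-6 than in MOLM-13, FADS1 9.28-fold, FASN 2.77-fold and ACSS2 1.67-fold, with no overlap of samples. SCD was 1.92-fold and SREBF1 1.88-fold higher in MOLM-13, again with no overlap. ACLY, ELOVL6, ACACA and ELOVL5 overlapped between the lines. In MOLM-13 with DMSO the order of mean levels ran from SCD, FASN, SREBF1, ELOVL5 and ACLY through ACSS2 and ACACA to FADS1, FADS2 and ELOVL6. Neighbours that overlapped there were SCD with FASN, SREBF1 with ELOVL5, ELOVL5 with ACLY, and ACSS2 with ACACA. For the main coding transcripts FADS1 and FADS2 changed places, with the ratio of FADS2-202 to FADS1-201 at 2.48, 2.35 and 2.47. In MONO-MAC-6 with DMSO, FASN stood first and apart, with 34.8% of its TPM on fragments under 200 bases. Its full-length transcript alone overlapped with the FADS2 sum, though not with FADS2-202. FADS2, ACLY, SCD, ELOVL5, FADS1 and SREBF1 came after FASN in a run in which each overlapped with the next. ACSS2, ACACA and ELOVL6 followed, each separate from its neighbours. With A9, FADS2 came sixth in MONO-MAC-6, behind FASN, ACLY, ELOVL5, SCD and FADS1, and overlapped with FADS1 alone.

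The balance of FADS2, the first desaturation step, and FADS1, the later one, differed with A9 in opposite directions in the lines when transcripts were summed, and only in MONO-MAC-6 when the main coding transcripts were used. These ratios were chosen after the values were seen and have no test. In MONO-MAC-6 the ratio of FADS2 to FADS1 was 3.37, 1.85 and 1.94 with DMSO and 0.987, 0.903 and 0.928 with A9. In MOLM-13 it was 0.741, 0.642 and 0.427 with DMSO and 1.02, 0.995 and 1.2 with A9. The groups did not overlap in either line, and the A9 samples of both lines lay between 0.903 and 1.2. The ratio of FADS2-202 to FADS1-201, the main coding transcripts, was 2.48, 2.35 and 2.47 with DMSO and 2.4, 2.48 and 2.45 with A9 in MOLM-13, with overlap. In MONO-MAC-6 it was 3.12, 1.56 and 1.60 with DMSO and 0.75, 0.67 and 0.775 with A9, without overlap. The MOLM-13 difference in the summed ratio therefore came with the shorter FADS1 transcripts. The ratio of FADS2 to ELOVL5 separated in the same way, at 1.81 to 2.33 with DMSO and 0.644 to 0.755 with A9 in MONO-MAC-6, and 0.0447 to 0.0619 with DMSO and 0.0771 to 0.0814 with A9 in MOLM-13.

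**Figure D3:**
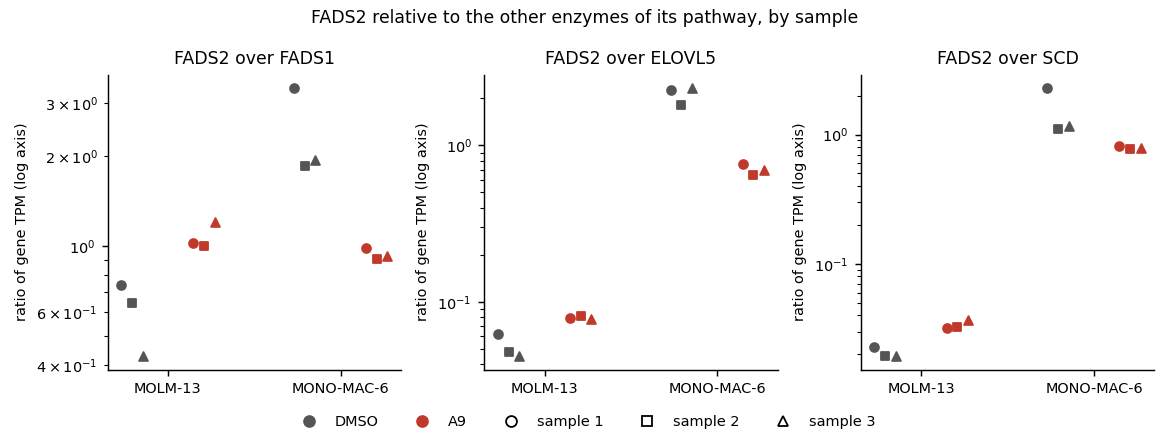
Ratio of FADS2 TPM to that of FADS1, ELOVL5 and SCD (vertical axes, log scale, a separate range in each panel) in each DMSO (grey) and A9 (red) sample of the lines. The values are sums over transcripts, and in all 3 panels the A9 samples lie above the DMSO samples in MOLM-13 and below them in MONO-MAC-6.

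In MONO-MAC-6, most FADS2 and SREBF1 transcripts that reached 1 TPM had lower means with A9, and most of the FADS2 TPM was on 1 transcript. FADS2-202, the coding transcript of 3630 bases that begins at chr11:61827761, carried 76.6% of FADS2 TPM with DMSO and 66.6% with A9. It measured 95.0, 105.2 and 124.5 TPM with DMSO and 33.8, 29.9 and 33.2 TPM with A9. All 7 FADS2 transcripts that reached 1 TPM, of 15, had a lower mean with A9, 5 of them without overlap. In MOLM-13 the same transcript measured 3.18, 2.47 and 2.36 TPM with DMSO and 4.82, 4.92 and 3.26 TPM with A9, all A9 samples above all DMSO samples. Of 16 SREBF1 transcripts that reached 1 TPM in MONO-MAC-6, 14 had a lower mean with A9 and 11 did not overlap. No share over all transcripts was computed, so these counts are a description. SREBF1-202, the main coding transcript, overlapped, at 5.45, 12.7 and 15.8 TPM with DMSO and 6.55, 5.19 and 4.58 TPM with A9. Its log2 fold change was -0.84 with a wide SE of 0.36, against 0.10 for the sum. SREBF1-201 did not overlap, at 9.62, 9.18 and 9.82 TPM with DMSO and 2.95, 3.84 and 3.64 TPM with A9.

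For FASN the sum over transcripts hid a difference between long and short ones. FASN-201, the full-length transcript of 8565 bases, measured 137.7, 189.7 and 252.1 TPM with DMSO and 133.1, 114.4 and 123.0 TPM with A9 in MONO-MAC-6, all A9 samples below all DMSO samples, and alone it gave a log2 fold change of -0.60 in place of -0.33. Annotated FASN fragments under 200 bases, such as FASN-212 of 141 bases, held 34.8% of FASN TPM with DMSO and 50.6% with A9 in this line, and 37.8% and 32.8% in MOLM-13. TPM divides by length, so a few reads on so short a transcript weigh heavily. FADS1 in MOLM-13 showed a similar divergence. FADS1-201 held 15.5% of the gene's TPM with DMSO and measured 1.28, 1.05 and 0.952 TPM, against 2.01, 1.98 and 1.33 TPM with A9, while the sum over FADS1 transcripts was lower with A9.

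**Figure D4:**
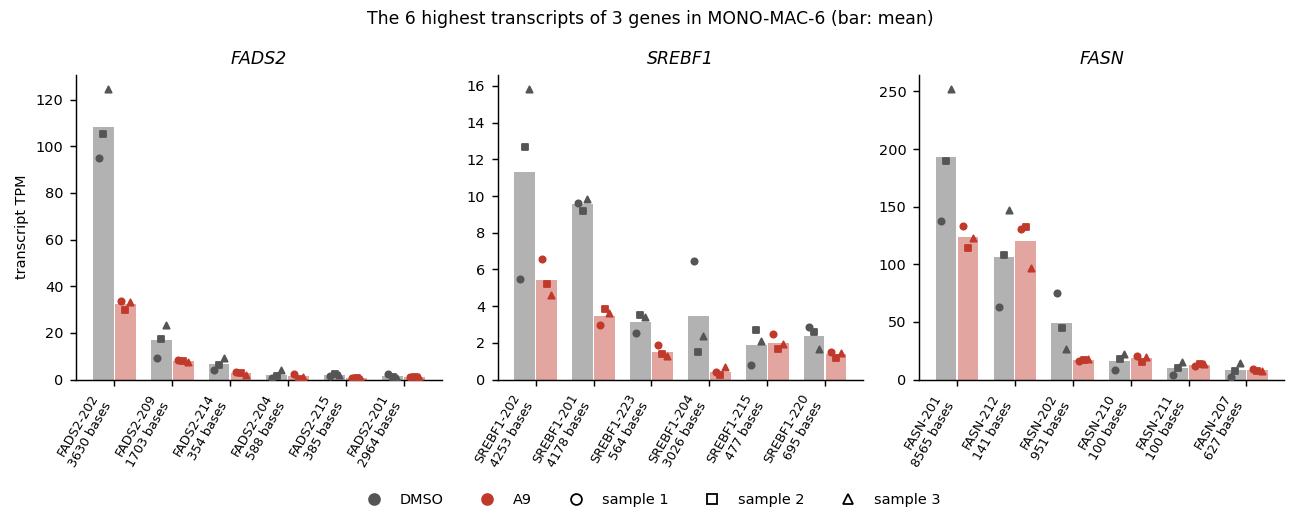
TPM (vertical axis, from 0) of the 6 most abundant transcripts of FADS2, SREBF1 and FASN in MONO-MAC-6, with bars at the mean and 1 point per sample for DMSO (grey) and A9 (red). FADS2-202 and SREBF1-201 separate by treatment, while SREBF1-202, the main coding transcript of its gene, overlaps. FASN-212, of 141 bases, overlaps while FASN-201, of 8565 bases, does not.

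Genes with a pattern most like that of FADS2 were ranked by Pearson's r over the 12 samples, each line centred on its mean, among 8050 genes with at least 5 TPM in both lines. The 5 highest were AQP3 (r = 0.985), INSIG1 (0.967), PSMD2 (0.964), GNA15 (0.959) and ITM2C (0.955). AQP3, a water and glycerol channel, averaged 15.4 TPM with DMSO and 19.7 TPM with A9 in MOLM-13, and 8.41 and 4.19 TPM in MONO-MAC-6. INSIG1, which holds SREBP in the endoplasmic reticulum, averaged 50.9 and 55.8 TPM in MOLM-13 and 45.4 and 18.8 TPM in MONO-MAC-6. Pearson's r takes no account of the size of a difference. PSMD2 averaged 132.8 and 138.7 TPM in MOLM-13 and 228.9 and 211.8 TPM in MONO-MAC-6. In the same order GNA15 averaged 220.7, 252.6, 70.85 and 36.44 TPM, and ITM2C 184.6, 219.3, 77.99 and 54.49 TPM. Among the 10 genes themselves, SREBF1 came closest (r = 0.874, rank 44), followed by ACSS2 (0.7), SCD (0.678), FASN (0.628) and ACACA (0.533), with FADS1 at 0.362, ACLY at 0.253 and ELOVL5 at 0.111. The 12 samples share 4 treatment groups, so these values describe the pattern and carry no test.

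The rest of the pathway was taken from 8 further lists of 101 genes. In MOLM-13, 0 of the 85 tested passed by limma, with 6 below 0.05 before adjustment. In MONO-MAC-6, 6 of 92 rose and 5 fell, where 3.36% of all genes passed, 2.51% as higher and 0.854% as lower. Without DMSO sample 1, 24 rose and 31 fell, where 24.8% of all genes passed, while without A9 sample 2 or A9 sample 3 only ALOX5AP and PLIN2 passed, both of which rose under all 13 alternatives tried. In the list headed acetyl-CoA and malonyl-CoA supply, 1 of 8 fell. It was ACAT2 (log2 fold change -0.86, adjusted p = 0.00420 by limma), a thiolase that belongs to cholesterol synthesis and not to that supply. ACAT2 went from 94.0 to 103.6 TPM with DMSO to 52.4 to 54.8 TPM with A9. None of the 10 tested elongation genes and none of the 6 other desaturation genes passed. FADS3, the third gene of the FADS cluster, was at 8.87, 9.81 and 10.9 TPM with DMSO and 9.75, 10.6 and 9.13 TPM with A9 (-0.01, adjusted p = 0.981 by limma). SCD5, a second delta-9 desaturase, had a log2 fold change of -0.54 (adjusted p = 0.169 by limma).

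Of 13 tested genes that control SREBP1, 1 fell and 1 rose in MONO-MAC-6. INSIG1 fell from 36.2, 49.0 and 51.0 TPM to 19.8, 18.3 and 18.4 TPM (log2 fold change -1.21, adjusted p = 0.0119 by limma). MLXIPL, the gene of the glucose-responsive factor ChREBP, rose from 18.2, 24.1 and 24.3 TPM to 36.8, 44.5 and 39.4 TPM (0.83, adjusted p = 0.0369 by limma). SCAP, the escort of SREBP to the Golgi, had a log2 fold change of 0.00 (adjusted p = 0.982 by limma), and NR1H3, the gene of the oxysterol receptor LXR alpha that can activate SREBF1, had one of 0.63 with all A9 samples above (adjusted p = 0.0697 by limma). All 15 tested cholesterol genes had a negative log2 fold change, with a median of -0.401 (-0.589 with median-ratio scaling), and 2 fell: FDPS, the farnesyl diphosphate synthase (-0.73, adjusted p = 0.00912 by limma), and MVD, the mevalonate diphosphate decarboxylase (-0.75, adjusted p = 0.0130 by limma). Without DMSO sample 1, 14 of the 15 fell, where 1333 of all 12931 genes tested did, and none of the 15 passed with a replicate block or without A9 sample 1, 2 or 3.

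The 3 remaining lists hold genes that store fatty acids, burn them or act on polyunsaturated chains. PLIN2, which coats lipid droplets, rose from 39.9, 41.7 and 43.9 TPM to 90.9, 114.8 and 105.2 TPM in MONO-MAC-6 (log2 fold change 1.28, adjusted p = 0.00321 by limma), 1 of 16 tested genes of acyl-CoA and glycerolipid synthesis. Of 18 fatty acid oxidation genes 3 rose: ACADVL, the dehydrogenase of very long chains (0.81, adjusted p = 0.0103 by limma), SLC25A20, the mitochondrial carnitine carrier (0.66, adjusted p = 0.0222 by limma), and PDK4, which restrains pyruvate dehydrogenase (1.05, adjusted p = 0.0133 by limma). PDK4 reached the minimum of 1 TPM only through its A9 samples, at 0.101 to 0.224 TPM with DMSO and 1.08 to 1.70 TPM with A9. ECI2, an isomerase of unsaturated chains, fell (-0.48, adjusted p = 0.0409 by limma). Of the 6 tested genes that act on polyunsaturated chains, 1 rose: ALOX5AP, the partner protein of 5-lipoxygenase that converts arachidonate to leukotrienes, from 475.4 to 498.9 TPM to 1242 to 1490 TPM (1.51, adjusted p = 0.00136 by limma).

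**Figure D5:**
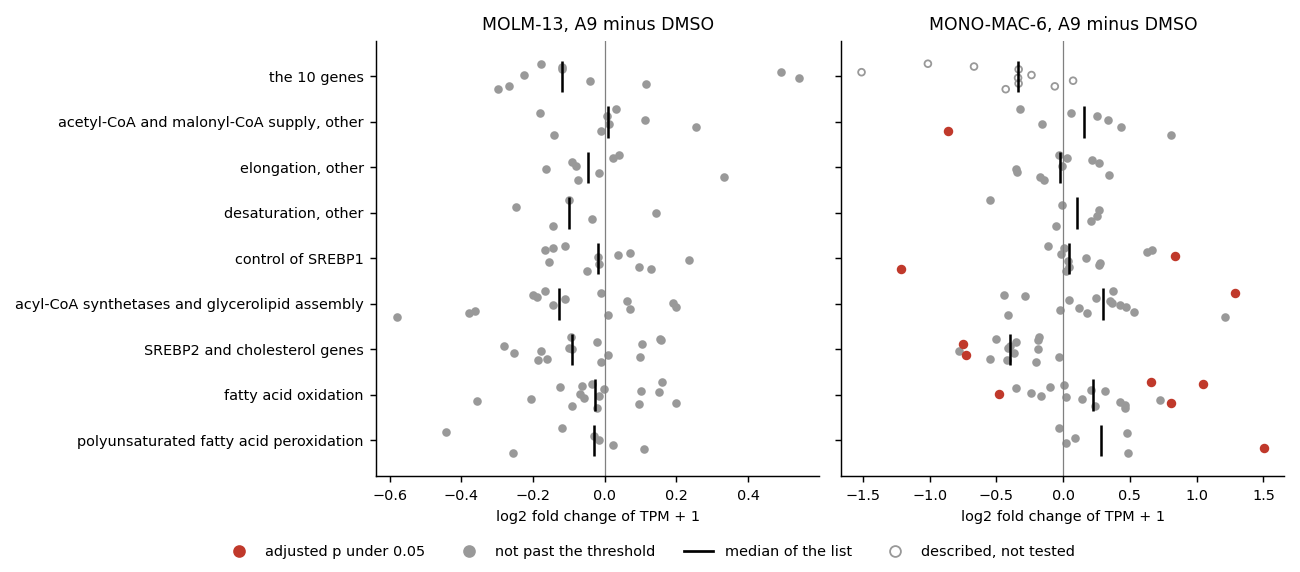
Log2 fold change of TPM + 1, A9 minus DMSO (horizontal axis), of each tested gene of the 10 and of the 8 further lists in MOLM-13 (left) and MONO-MAC-6 (right), with a line at each median and genes past the threshold in red (the 10 genes in MONO-MAC-6 are drawn open, as described only). In MONO-MAC-6 all 15 cholesterol genes lie below 0, and PLIN2 at 1.28 and ALOX5AP at 1.51 lie far to the right.

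Some markers of monocytes were higher with A9 in MONO-MAC-6. The summed TPM of the 6 monocyte markers was 111.7 to 115.2 with DMSO and 244.3 to 259.8 with A9, with 4 of 6 reaching 1 TPM, and CD14 went from 2.66 to 3.71 TPM to 12.4 to 13.5 TPM. Most of that sum was CD68, at 40.3 to 60.1 TPM with DMSO and 159.5 to 181.5 TPM with A9, while ITGAM and FCGR1A overlapped between the groups. The summed TPM of the 8 myeloid leukaemia markers was 4281 to 5180 with DMSO and 9062 to 9303 with A9. Most of it was LYZ, at 3068 to 3624 TPM and 7564 to 7868 TPM. SPI1, CD33, CSF3R and CEBPA were also higher in every A9 sample, while FLT3, MPO and PTPRC overlapped. In MOLM-13 the monocyte sum was 105.6 to 108.5 with DMSO and 111.7 to 120.0 with A9. The myeloid leukaemia sum was also higher there, at 763.3 to 846.5 and 968.1 to 1118 TPM. LYZ went from 121.5 to 140.9 TPM to 317.0 to 342.8 TPM in that line. SPI1, CD33 and CEBPA were also higher in every A9 sample there, while CSF3R, MPO, FLT3 and PTPRC overlapped. Both ends of the FLT3 range were lower with A9, at 59.41 to 84.43 TPM with DMSO and 41.95 to 59.55 TPM with A9. Those of PTPRC were also lower, at 14.43 to 33.53 and 4.425 to 18.02 TPM. Of the monocyte markers, ITGAM had a lower, overlapping range, at 5.332 to 9.155 and 3.274 to 5.691 TPM. CSF1R was higher in every A9 sample, and the others overlapped. Adipocyte markers, of interest because that cell type makes fatty acids, summed to 0.123 to 0.345 TPM with DMSO and 5.61 to 7.55 TPM with A9 in MONO-MAC-6. Nearly all of it was FABP4, a fatty acid carrier that macrophages also make, at 5.44 to 7.45 TPM with A9. The part of these markers in the values of the 10 genes was not tested.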

How the data were processed

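The deposited TPM values, 1 per Ensembl transcript and library, were made by the authors with kallisto on GRCh38, per the submitters' processing notes, which also name limma. The annotation release and program versions are not given in the sources used here. The values of each of the 36 libraries summed to 1000000 within rounding, as TPM do. Such values keep no counts, so depth is unknown and counting intervals could not be given.

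Of 207175 transcripts, 162561 matched GENCODE 29 by identifier, held 89.9% to 91.4% of TPM per library, and were summed to 35490 genes. Libraries with the same first number were averaged (median SD within first numbers 0.0716 and 0.0761 on the log2 scale in MOLM-13 and MONO-MAC-6, within second numbers 0.175 and 0.21). Each line was fitted alone with limma 3.58.1 in R 4.3.3 on log2(TPM + 1), 3 A9 against 3 DMSO samples, with eBayes (trend and robust) and Benjamini-Hochberg adjustment over all genes whose mean reached 1 TPM in either group. Tests were two-sided with a threshold of 0.05. A fold change on this scale understates that of low genes. With 3 samples a side the smallest two-sided exact p is 0.1, so only the model across genes was used. The script was tested on simulated data.

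The members and the lists were chosen with earlier results of these data known. All 10 members are named, as are genes of the other lists past the threshold, and FADS3, SCD5, INSIG1, SCAP, NR1H3 and SREBF2 whatever their values. Genes like FADS2 are the 5 with the highest Pearson's r. The alternatives were a pseudocount of 0.1, no filter, averaging by the second number, 9 libraries per group, a replicate block, median-ratio scaling, removal of a length trend (lowess, span 0.3) and each sample left out, and, chosen after seeing the data, for the 10 genes and the FADS2 ratios, the main coding transcript of at least 1000 bases alone. Promoter windows come from RefSeq on GRCh38.p14.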

Additional observations from a re-analysis of the deposited data

Results flagged for a closer look

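Several values lay on opposite sides of DMSO in the lines, with every A9 sample above every DMSO sample in one line and below in the other. The difference between the lines was not tested in any of these cases, the doses differed, and the ratios were chosen after the values were seen. PLIN2 TPM with A9 was 0.881 of the DMSO mean in MOLM-13 (adjusted p = 0.823 by limma) and 2.48 of it in MONO-MAC-6. MVD TPM with A9 was 1.08 of the DMSO mean in MOLM-13 and 0.588 of it in MONO-MAC-6. The mean ratio of FADS2 to FADS1 differed by 0.467 in MOLM-13 (A9 minus DMSO), while in MONO-MAC-6 it differed by -1.45. With the main coding transcripts in place of sums, an alternative chosen after seeing the data, the mean ratio in MOLM-13 was 2.44 in both groups, so the MOLM-13 value rests on the shorter FADS1 transcripts, whereas in MONO-MAC-6 it was 2.09 with DMSO and 0.731 with A9. The mean ratio of FADS2 to ELOVL5 differed by 0.0278 and by -1.44 in the same order, and that of FADS2 to SCD by 0.0131 and by -0.725.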

How the results depend on the processing

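In MOLM-13, 14 genes passed the threshold, 10 higher and 4 lower, and the count was 4 without a filter on low values, 46 with median-ratio scaling, 177 with the length trend removed, 1741 with 9 libraries as samples, 5439 with libraries averaged by the second number, and 2 to 8 with a sample left out. In MONO-MAC-6, 433 passed, and the count was 254 without the filter, 1195 with the length trend removed, 5586 with 9 libraries as samples, 8705 with averaging by the second number, and 59 to 3205 with a sample left out (59 without A9 sample 2, 60 without A9 sample 3, 3205 without DMSO sample 1). Higher and lower genes numbered 323 and 110 without further scaling, 325 and 234 with median-ratio scaling, and 636 and 559 with the length trend removed. Averaging by the second number mixes samples and, like 9 libraries per group, treats repeats as replicates, and under these FADS2 in MOLM-13 had an adjusted p of 0.000811 and 0.0100 by limma. Otherwise the cause was not tested.

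With the first number as a replicate block, 87 genes of MOLM-13 passed and 94 of MONO-MAC-6. Deviations of same-numbered samples correlated at 0.361, -0.077 and 0.676 for MOLM-13 and at -0.0272, 0.0876 and -0.0907 for the other line, so the numbers were not taken as pairs. In the block, 3 genes of the other lists rose in MONO-MAC-6 and 0 fell.

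For the 10 genes in MONO-MAC-6, FADS2 ranged from -1.73 to -1.38 and SREBF1 from -1.20 to -0.84 on the log2 scale over 14 alternatives. FADS1, ELOVL5 and ACLY changed sign in some, with ranges of -0.64 to 0.02, -0.12 to 0.19 and -0.55 to 0.25. In MOLM-13, FADS2 ranged from 0.33 to 0.68. Its p by limma was 0.00636 (adjusted 0.217) with median-ratio scaling and 0.000908 (adjusted 0.0534) with the length trend removed. With the main coding transcript alone it was 0.0209 (adjusted 0.461). With the main coding transcript alone FADS1 in MOLM-13 was at 0.40, and ELOVL6 had no value in either line. ELOVL6 also had none without MONO-MAC-6 DMSO sample 3. Depth could not be weighed, since TPM hold no counts.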

Other observations

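The carboxylases ACACA and ACACB, which make malonyl-CoA for synthesis and, at the mitochondrial surface, for the control of oxidation, had mean differences of opposite sign in MONO-MAC-6, a pair singled out after their values were seen. ACACB measured 3.98, 6.04 and 5.97 TPM with DMSO and 9.63, 10.2 and 9.90 TPM with A9, all A9 samples above, with a log2 fold change of 0.80 (adjusted p = 0.0625 by limma). ACACA was at 9.14 ± 2.27 TPM with DMSO and 6.40 ± 0.539 TPM with A9 (SD, n = 3 each), and its groups overlapped. In MOLM-13, ACACB was at 2.23 ± 0.420 TPM with DMSO and 1.95 ± 0.519 TPM with A9.

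The long-chain acyl-CoA synthetase ACSL1 and CPT1A, the carnitine transferase that admits long chains to mitochondria, were also singled out after their values were seen. ACSL1 measured 14.6, 29.5 and 32.7 TPM with DMSO and 53.6, 63.1 and 56.1 TPM with A9 in MONO-MAC-6 (log2 fold change 1.21, adjusted p = 0.0919 by limma). In MOLM-13 its log2 fold change was -0.58 (adjusted p = 0.598 by limma). CPT1A measured 10.6, 17.6 and 20.7 TPM with DMSO and 25.3, 28.2 and 26.3 TPM with A9 in MONO-MAC-6, all A9 samples above (0.72, adjusted p = 0.168 by limma).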
